A study of Homo sapiens with 15 samples.

Results

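The genes described here are 60 protein-coding genes of human chromosome 6, with 33 on the short (p) arm and 27 on the long (q) arm, out of 60675 genes in the count table. They run from EXOC2 near the tip of the p arm to TBP near the tip of the q arm, and they were listed by name from along both arms. Chromosome 6 itself was chosen on the measured fold changes of 8CDm cells against PCI-34051-treated WT cells, with earlier results of these data known. All comparisons that use those libraries are therefore descriptions without a test. All 60 genes were found, and 59 passed the filter on low counts. SERPINB9, a granzyme inhibitor, failed it with at most 1 count in any library.

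RNA was measured in 15 libraries of HT1080, a human fibrosarcoma cell line, with 3 replicates in each of 5 groups. 6CD1m cells carry KDAC6 H216A, which inactivates the first catalytic domain of this lysine deacetylase, and 6CD2m cells carry KDAC6 H611A, which inactivates the second. Both received 1 μm Tubastatin A, a KDAC6 inhibitor, for 2 days (6CD1m_Tub and 6CD2m_Tub). 8CDm cells carry KDAC8 H143A, which leaves KDAC8 without catalytic activity, and received 5 μm PCI-34051, a KDAC8 inhibitor, for 2 days (8CDm_PCI). WT cells received 5 μm PCI-34051 (WT_PCI) or 1 μm Tubastatin A (WT_Tub) for 14 days. The alleles lie in the endogenous genes, every group was treated with an inhibitor, and untreated cells are not analysed here. Between an edited line and WT cells, the line and the length of treatment change together, so their parts cannot be told apart. Between 8CDm_PCI and WT_Tub the inhibitor and its dose change as well.

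Genes on 1 chromosome arm share its copy number, and RNA levels tend to follow the number of gene copies. A regulator that acts at single promoters moves its targets without their neighbours. RNA counts do not measure copy number, and DNA was not analysed here. Chromosome 6 carries the major histocompatibility complex and most histone genes on its p arm. Its q arm carries HDAC2, a class I deacetylase of chromatin, together with the NF-kappaB inhibitor TNFAIP3 and the transcriptional repressor PRDM1. It also carries SOD2, the superoxide dismutase of mitochondria.

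The promoter windows of 3 q-arm genes are shown because their levels stood apart from each other although they share the arm. TNFAIP3 followed the arm in 8CDm cells, PRDM1 went against it, and HDAC2 is the classical deacetylase gene among the members. Each window is the RefSeq sequence from 250 bases before to 50 bases after a listed start on GRCh38.p14. Matches to the NF-kappaB consensus, searched on both strands, are in capitals. The windows are chr6:137867009-137867308 (TNFAIP3, plus strand), chr6:113971099-113971398 (HDAC2, minus strand) and chr6:106086086-106086385 (PRDM1, plus strand, the first of 2 listed starts).
TNFAIP3: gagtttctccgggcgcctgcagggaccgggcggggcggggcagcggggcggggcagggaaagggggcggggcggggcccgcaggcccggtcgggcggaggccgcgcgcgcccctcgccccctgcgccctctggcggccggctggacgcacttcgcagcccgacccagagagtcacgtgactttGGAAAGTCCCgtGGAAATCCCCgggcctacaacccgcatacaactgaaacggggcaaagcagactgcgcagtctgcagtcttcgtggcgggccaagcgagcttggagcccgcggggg
HDAC2: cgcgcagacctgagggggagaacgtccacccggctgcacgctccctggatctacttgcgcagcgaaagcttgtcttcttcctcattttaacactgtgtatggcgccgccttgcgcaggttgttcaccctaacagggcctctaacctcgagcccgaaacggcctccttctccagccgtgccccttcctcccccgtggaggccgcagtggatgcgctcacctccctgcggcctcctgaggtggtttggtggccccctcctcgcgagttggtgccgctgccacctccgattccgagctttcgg
PRDM1: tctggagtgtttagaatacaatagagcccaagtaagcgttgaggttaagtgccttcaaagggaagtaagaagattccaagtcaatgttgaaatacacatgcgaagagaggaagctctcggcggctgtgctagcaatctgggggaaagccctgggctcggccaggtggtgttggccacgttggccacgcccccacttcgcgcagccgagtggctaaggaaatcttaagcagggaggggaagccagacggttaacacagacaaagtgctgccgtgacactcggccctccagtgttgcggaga
The TNFAIP3 window held 2 matches, starting at bases 184 and 196, both read on the strand opposite to the gene, and the HDAC2 and PRDM1 windows held none. Its GC content was 73.7%, against 64.0% for HDAC2, 54.3% for PRDM1 and a median of 58.7% over all windows. Of 35116 windows in the RefSeq table, 11.3% held the consensus. Windows were listed for 58 of the 60 members, all but VEGFA and QKI, and 13 of their 116 windows (11.2%) held it, 1 for each of 13 genes. A match is a description of letters, not a site.

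Library totals ran from 10932455 counts to 19983710 counts, and 6CD1m_Tub libraries were the shallowest, with 10932455 to 14068244. Mesenchymal markers were high in every library, with VIM at 2810 CPM or more and FN1 at 393 CPM or more, where CPM is a gene's count scaled to a common library size by the TMM method. EPCAM, CDH1, PTPRC and ALB were at or near 0, with at most 0.118 CPM. Other epithelial, endothelial and blood markers reached higher levels in their highest library. These were KRT19 (1.9 CPM), CLDN3 (1.77 CPM), CDH5 (2.85 CPM), VWF (1.84 CPM) and LYZ (3.13 CPM), with medians of at most 0.376 CPM. Over the 27 q-arm members, the median deviation of a library from each gene's mean showed WT_PCI replicate 1 at 0.27, above the other WT_PCI libraries at -0.15 and -0.22 (log2). In the same measure, 6CD1m_Tub replicate 1 lay at -0.30, below the other 6CD1m_Tub libraries at -0.03 and 0.07. WT_Tub replicate 1 lay at 0.35, above the other WT_Tub libraries at 0.18 and 0.13. These libraries stood apart in the same direction over the other q-arm genes and, by less, over 13237 protein-coding genes of the other chromosomes. There WT_PCI replicate 1 lay at 0.07, against -0.07 and -0.04, and 6CD1m_Tub replicate 1 at -0.10, against -0.04 and 0.00. WT_Tub replicate 1 lay at 0.12, against 0.02 and 0.03. Nothing in the labels says that replicates came from separate cultures, although the methods call them biological replicates.

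In 8CDm_PCI cells the genes of the q arm were low over most of its length, whereas the p-arm members lay near the mean of all libraries. In bulk libraries, fewer cells with an RNA and less of it per cell cannot be told apart. Over the 27 q-arm members the median deviation was -0.61, -0.58 and -0.55 in the 3 libraries, whereas no library of another group was below -0.30. The p-arm members lay between 0.00 and 0.06 in the same libraries. Over the 288 other q-arm genes the 8CDm_PCI libraries lay between -0.62 and -0.58, and the lowest library elsewhere was at -0.20.

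**Figure D1:**
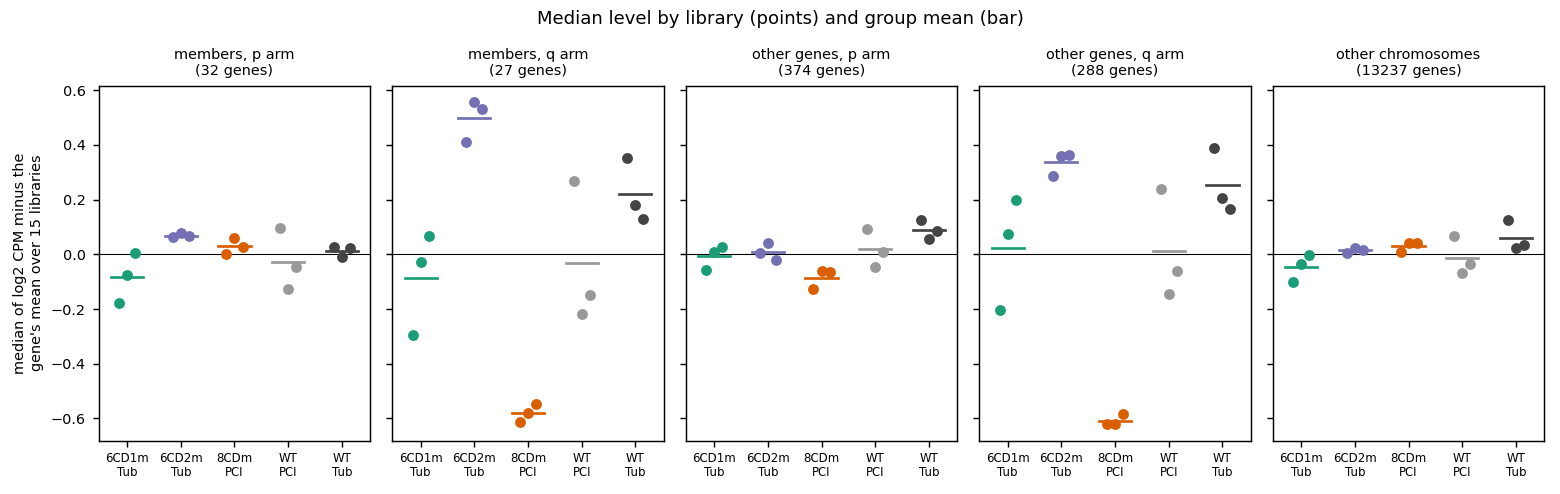
Median over genes of log2 CPM minus the gene's mean over 15 libraries (vertical axis, log2), for members and other protein-coding genes of each arm and for the other chromosomes. Points are libraries and bars are group means (n = 3). The 8CDm_PCI libraries lie between -0.61 and -0.55 for q-arm members, below every other library, and between 0.00 and 0.06 for p-arm members.

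Against WT_Tub, the median log2 fold change of the q-arm members in 8CDm_PCI was -0.79, and 25 of 27 were below 0. The p-arm members had a median of 0.00, with 16 of 32 below 0. Over all 315 q-arm protein-coding genes tested the median was -0.86, a level of 0.550 times that of WT_Tub, and 94.3% were below 0. The 406 p-arm genes had a median of -0.15. Against WT_PCI the medians were -0.47 for q-arm members, -0.61 for all q-arm genes (0.655 times WT_PCI), -0.01 for p-arm members and -0.12 for all p-arm genes. Without WT_PCI replicate 1 they were -0.33, -0.47, 0.02 and -0.09. Over the libraries left out in turn, the q-arm members ran from -0.59 to -0.33 against WT_PCI and from -0.87 to -0.74 against WT_Tub.

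The comparison with WT_PCI moved with GC content, and the q-arm members were poorer in GC than the p-arm members (median 41.7% against 47.3%). Across 13946 protein-coding genes, the log2 fold change against WT_PCI had a Spearman correlation of -0.454 with GC content, and that against WT_Tub one of -0.132. These are correlations across genes within the same libraries. With offsets that remove the trend with GC content, the median of all q-arm genes was -0.87 against WT_PCI (0.549 times) and -0.97 against WT_Tub (0.512 times). The p-arm medians were then 0.00 and -0.13.

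Along the chromosome, the medians stepped down next to the boundary of the arms against WT_Tub, and from 70 Mb against WT_PCI. The arms were divided at the widest stretch with no protein-coding gene start, from 57646849 to 61679960 (4.03 Mb). In windows of 10 Mb, the last window before it, which holds 17 genes from 50 to 60 Mb, had a median of 0.02 against either WT group. The 5 genes between 60 and 70 Mb had medians of -0.59 against WT_Tub and -0.05 against WT_PCI. From 70 Mb to the end of the arm, each of 11 windows lay between -0.99 and -0.74 against WT_Tub and between -0.89 and -0.42 against WT_PCI. On the p arm, the window from 20 to 30 Mb was low against WT_Tub, at -0.71 over 75 genes, and was at -0.20 against WT_PCI.

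Among 293 windows of the genome with 10 or more genes, all 10 q-arm windows were among the 11 lowest against WT_Tub and among the 14 lowest against WT_PCI. The lowest window elsewhere, at 150 Mb on chromosome 7, had medians of -1.09 and -1.26. Over the whole of chromosome 6 the median was -0.49 against WT_Tub, while the other chromosomes lay between -0.15 and 0.06. Against WT_PCI it was -0.34, close to -0.30 for chromosome 22, and the others reached up to 0.22. With GC offsets it was -0.38 against WT_PCI, where the other chromosomes lay between -0.13 and 0.10.

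**Figure D2:**
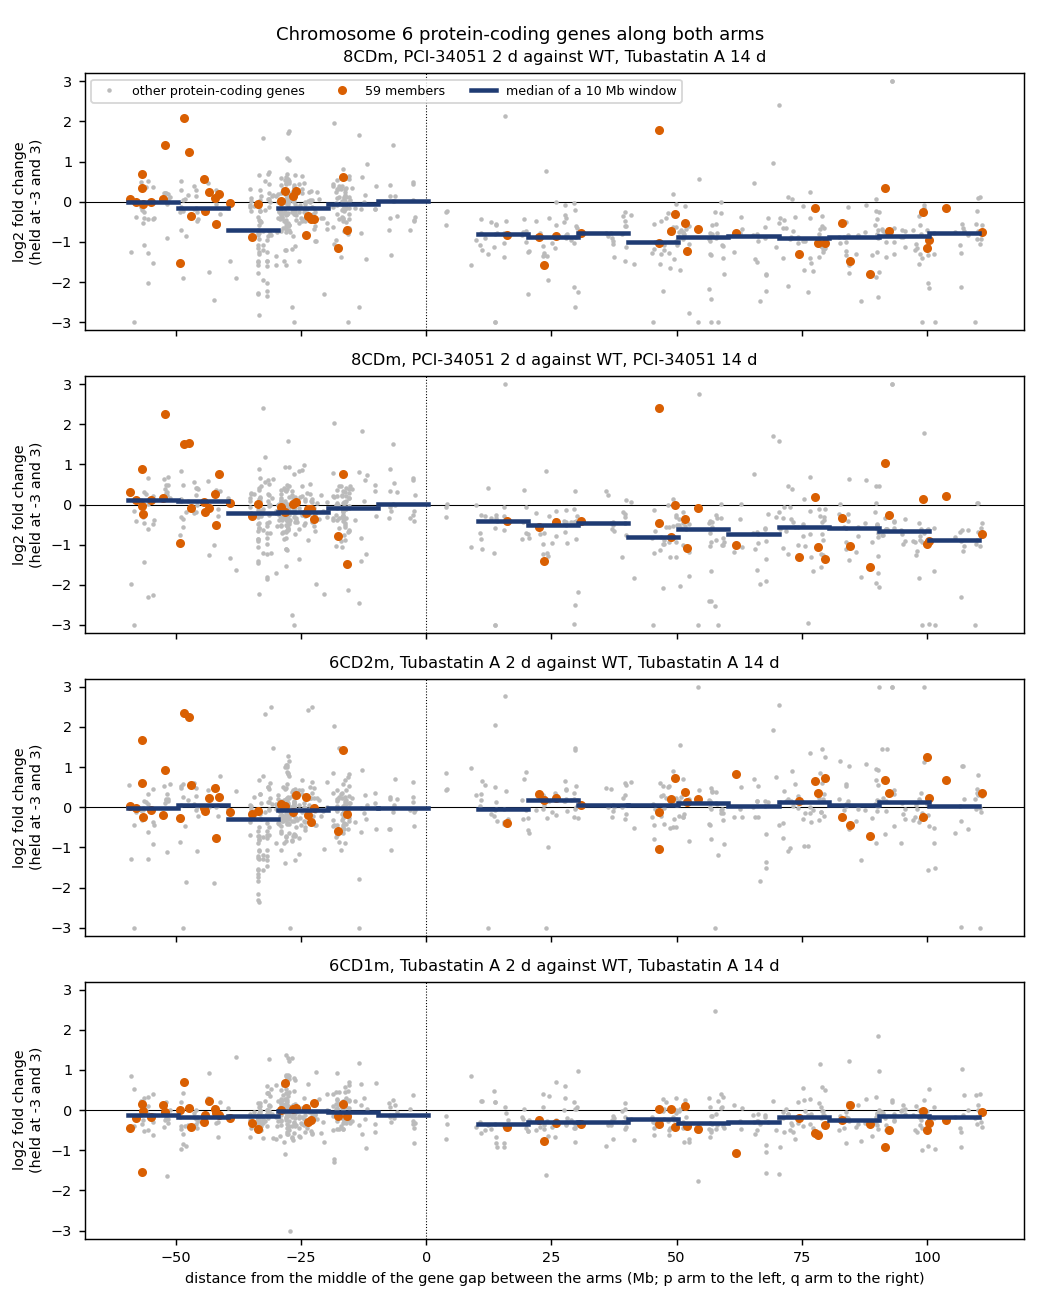
Log2 fold change of 721 chromosome 6 protein-coding genes (vertical axis, values held at -3 and 3) against distance from the middle of the gene gap between the arms (Mb). Orange points are the 59 members, grey points are other genes and blue bars are medians of 10 Mb windows with at least 10 genes. In 8CDm_PCI against WT_Tub, q-arm bars lie between -0.99 and -0.77, and in the 6CD2m_Tub panel they lie between -0.04 and 0.17.

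On either arm most members lay near the median of all genes of their own arm. Against WT_Tub, 18 of 27 q-arm members lay within 0.5 (log2) of it, 6 lay above and 3 lay below. Against WT_PCI the split was 16 within, 7 above and 4 below, and with GC offsets it was 19, 5 and 3 against WT_Tub and 16, 7 and 4 against WT_PCI. On the p arm, 21 of 32 members lay within 0.5 against WT_Tub and 23 of 32 against WT_PCI, with or without GC offsets. Against WT_Tub the quartiles of all genes were -1.25 and -0.58 on the q arm, and -0.53 and 0.15 on the p arm. The share of all arm genes within 0.5 is not given here, so nothing particular to the members is read from these counts. The 18 near the arm against WT_Tub came from several of the role lists. They held the autophagy gene ATG5 at -1.02, the mannose 6-phosphate receptor gene IGF2R at -0.95 and the sorting nexin gene SNX14 at -0.86. The TAK1 kinase gene MAP3K7 was at -0.79 and the TATA-binding protein gene TBP at -0.74. Of the 27 q-arm members, 20 had their lowest group mean in 8CDm_PCI and 20 had their highest in 6CD2m_Tub. Of the 32 p-arm members, 9 and 11 did. These means carry no GC offsets, and the counts over all q-arm genes are not given here.

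The members furthest below the arm were SASH1, ME1, CITED2, SGK1 and UTRN. SASH1, a scaffold protein of signalling, was at 19.1, 21.7 and 22.2 CPM in 8CDm_PCI, at 64.0, 55.9 and 65.8 CPM in WT_PCI and at 79.0, 70.0 and 72.2 CPM in WT_Tub. ME1, the cytosolic malic enzyme that makes NADPH, was at 17.2, 18.4 and 15.4 CPM in 8CDm_PCI, 65.3, 32.3 and 36.8 CPM in WT_PCI, and 59.1, 46.7 and 45.6 CPM in WT_Tub. WT_PCI replicate 1 stood above its group for ME1, as it did for the q arm and, by less, for the other chromosomes. The 8CDm_PCI libraries did not overlap those of either WT group for these genes.

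CITED2, a transcriptional cofactor that restrains hypoxia-inducible factor, was at 19.9, 23.7 and 24.1 CPM in 8CDm_PCI, against 61.0, 52.6 and 59.8 CPM in WT_PCI and 47.9, 42.9 and 47.0 CPM in WT_Tub. SGK1, a kinase induced by serum and glucocorticoids, was at 30.8, 29.1 and 31.0 CPM, against 88.5, 66.4 and 69.4 CPM in WT_PCI and 81.2, 75.3 and 66.3 CPM in WT_Tub. Its fold was 0.405 relative to WT_PCI. UTRN, which encodes the dystrophin relative utrophin, was at 64.7, 60.5 and 66.2 CPM, against 138, 120.5 and 132 CPM in WT_PCI and 194, 174 and 166 CPM in WT_Tub. SGK1 and CITED2 were more than 0.5 below the arm only against WT_PCI, and UTRN only against WT_Tub.

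TNFAIP3, whose values are given because its promoter is shown, was at 9.05, 8.40 and 8.48 CPM in 8CDm_PCI. It was at 18.7, 17.8 and 17.1 CPM in WT_PCI and at 17.2, 17.2 and 18.6 CPM in WT_Tub. Its log2 fold changes of -1.05 and -1.03 were within 0.5 of the arm against either WT group. IFNGR1, a chain of the interferon gamma receptor that lies in the same window of the arm, was at 0.19 against WT_PCI and -0.17 against WT_Tub, both above the arm. With GC offsets IFNGR1 was still above the arm against WT_PCI, but its own value there turned to -0.12.

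PRDM1 and AKAP12 went against the arm. PRDM1, a zinc finger repressor best known from lymphocytes, was at 4.67, 4.01 and 4.72 CPM in 8CDm_PCI and between 0.507 and 1.77 CPM in all other libraries. These levels rest on 74 to 88 counts in 8CDm_PCI libraries and on 9 to 27 counts elsewhere. PRDM1 lies within the span of ATG5, on the opposite strand, and ATG5 had 215 to 657 counts a library. The strand setting is not given, so reads of ATG5 may enter the counts of PRDM1. The log2 fold change of PRDM1 was 2.40 against WT_PCI and 1.79 against WT_Tub, 3.01 and 2.66 above the median of the arm.

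AKAP12, which anchors protein kinase A to the cell cortex, was at 225, 239.7 and 225 CPM in 8CDm_PCI and at 126, 107 and 102 CPM in WT_PCI. In WT_Tub it was at 184, 176 and 181 CPM, so its log2 fold change was 1.04 against WT_PCI and 0.35 against WT_Tub. Smaller values above the arm against either WT group belonged to QKI, an RNA-binding regulator of splicing (0.21 and -0.16), and to EZR, which links actin to the membrane (0.14 and -0.26). With GC offsets QKI turned to -0.18 against WT_PCI and stayed above the arm. CD164, a sialomucin of the cell surface, was at -0.02 and -0.31, but with GC offsets it lay within 0.5 of the arm against either WT group.

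HDAC2 was near the arm against WT_Tub and above it against WT_PCI. It was at 57.2, 60.3 and 56.0 CPM in 8CDm_PCI, at 81.9, 49.5 and 53.3 CPM in WT_PCI and at 117, 77.9 and 80.7 CPM in WT_Tub. Replicate 1 was the highest in both WT groups, and the 8CDm_PCI libraries overlapped those of WT_PCI but lay above its replicates 2 and 3. The log2 fold changes were -0.67 against WT_Tub and -0.09 against WT_PCI. With GC offsets HDAC2 was within 0.5 of the arm against either group. HDAC2 was at 48.1, 73.3 and 76.8 CPM in 6CD1m_Tub and at 96.4, 110.0 and 110.2 CPM in 6CD2m_Tub. Its log2 fold change was 0.20 ± 0.20 (SE) in 6CD2m_Tub against WT_Tub (adjusted p = 0.486, edgeR) and -0.67 ± 0.20 in 6CD1m_Tub against 6CD2m_Tub (adjusted p = 0.0162), neither past the threshold of 0.001. Under the alternatives the latter adjusted p ranged from 0.000765 to 0.0699 (edgeR and DESeq2), and it passed only without the filter on low counts.

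On the p arm, the members of 8CDm_PCI lay around a median near 0. DSP, the desmosomal plaque protein desmoplakin, was at 97.0, 101 and 103 CPM in 8CDm_PCI, at 25.3, 17.6 and 20.5 CPM in WT_PCI and at 39.6, 37.0 and 36.5 CPM in WT_Tub. VEGFA, the angiogenic growth factor, was at 381, 383 and 393 CPM in 8CDm_PCI and at 896, 1187 and 1124 CPM in WT_PCI. In WT_Tub VEGFA was at 547, 636 and 701 CPM. Both genes stood clear of either WT group, DSP above and VEGFA below.

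EDN1, which encodes the precursor of the vasoconstrictor endothelin-1, was at 3.53, 3.09 and 2.85 CPM in 8CDm_PCI, at 1.12, 0.948 and 1.16 CPM in WT_PCI and at 1.55, 0.713 and 1.68 CPM in WT_Tub. NEDD9, a scaffold of focal adhesions, was at 5.18, 4.28 and 5.91 CPM in 8CDm_PCI, at 1.39, 1.77 and 2.25 CPM in WT_PCI and at 0.995, 1.36 and 1.27 CPM in WT_Tub. The 8CDm_PCI libraries lay above those of either WT group for both genes, with log2 fold changes against WT_PCI of 1.54 for EDN1 and 1.51 for NEDD9.

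The members nearest the median of -0.18 against WT_PCI were all on the p arm. They were DTNBP1, a subunit of a complex of lysosome-related organelles (-0.18), the RNA helicase gene DDX39B (-0.18) and the glucocorticoid receptor co-chaperone gene FKBP5 (-0.21). RIPK1, a kinase of TNF signalling, was at -0.23 and MAPK14, which encodes p38 alpha, at -0.11. DTNBP1 was at 15.3, 14.9 and 15.8 CPM in 8CDm_PCI and at 17.4, 18.5 and 16.2 CPM in WT_PCI. DDX39B was at 304, 286 and 269.9 CPM and at 234, 374 and 368 CPM. FKBP5 was at 18.1, 16.3 and 18.5 CPM, at 22.3, 20.3 and 18.8 CPM in WT_PCI and at 34.4, 31.7 and 28.1 CPM in WT_Tub. Its log2 fold change was -0.83 against WT_Tub. RIPK1 was at 39.2, 39.7 and 40.3 CPM in 8CDm_PCI and at 44.9, 47.9 and 47.3 CPM in WT_PCI, and MAPK14 was at 60.3, 72.7 and 70.8 CPM and at 85.8, 66.0 and 67.9 CPM.

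At an adjusted p below 0.001 in edgeR's quasi-likelihood test, 21 of 59 members passed in 8CDm_PCI against WT_PCI, with 14 lower and 7 higher. The share over all 19535 genes tested was 11.0%, with 6.27% lower and 4.69% higher. Without WT_PCI replicate 1 the count was 20. Against WT_Tub 24 passed, or 15 without 8CDm_PCI replicate 1. Of the 24, 19 were lower and 5 higher, beside 10.2% over all genes, 6.84% lower and 3.36% higher. Of the q-arm members, 10 were lower and 2 were higher against WT_PCI, and 15 and 1 against WT_Tub. With GC offsets 17 and 2 q-arm members passed against WT_PCI. Since chromosome 6 was chosen on these libraries, nothing is read from these counts.

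By role, and again as a description, the metabolism and redox list had 3 of 5 members lower against either WT group and 0 higher. They were ME1 and SOD2 on the q arm and GCNT2, which branches carbohydrate chains, on the p arm. The trafficking, autophagy and endosome list had 6 of 8 lower against WT_Tub and 2 of 8 against WT_PCI. Of the 6, MYO6, IBTK, SNX14, ATG5 and IGF2R lie on the q arm and KIF13A on the p arm. IBTK is counted here as listed, and these data do not show that it belongs to this role. The role lists therefore overlap with the arms, and the shares over all genes are those given above. The list of cytoskeleton, junctions and adhesion was split, with 4 of 12 higher and 2 lower against WT_PCI and 3 of each against WT_Tub. The 4 members for RNA processing and translation lay between -0.42 and 0.26 against WT_Tub. Of 13 members for chromatin and transcription, 2 were higher and 2 lower against either WT group. CCND3, of 3 members for the cell cycle and DNA replication or repair, was lower against either. Of 6 members for kinases, calcium and stress signalling, 2 were lower against WT_PCI and 3 against WT_Tub. Of 6 tested members for inflammatory and cytokine signalling, 1 was lower against either group. Of the 2 secreted factors, EDN1 was higher and VEGFA lower against WT_PCI.

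**Figure D3:**
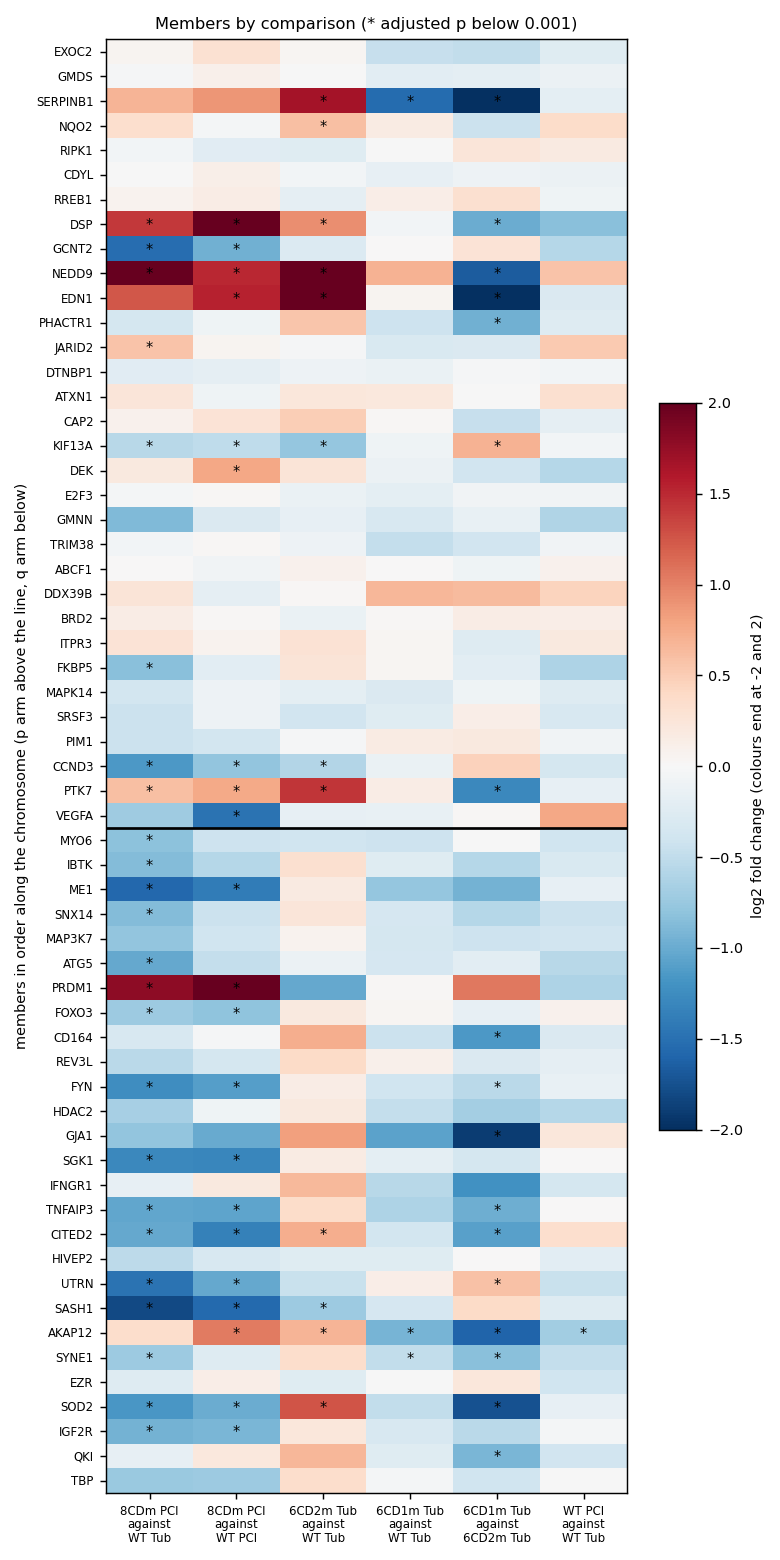
Log2 fold change (colour, ending at -2 and 2) of the 59 members, in order along the chromosome, in 6 comparisons. Stars mark an adjusted p below 0.001 (edgeR), and the line divides 32 p-arm members from 27 q-arm members. Blue fills most q-arm rows in the 8CDm_PCI columns, where 25 of 27 are below 0 against WT_Tub, and the 6CD2m_Tub column holds 9 starred members higher than WT_Tub and 3 lower.

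The libraries of the KDAC6 lines were not used to choose chromosome 6, so each gene was tested there among all genes. The members were listed with earlier results of these libraries known, so the share of them that passed is a description. In 6CD2m_Tub against WT_Tub, 12 of 59 members passed an adjusted p of 0.001, of which 9 rose and 3 fell. Over all genes 11.8% passed, with 4.61% higher and 7.22% lower, beside 15.3% and 5.08% of members. Of the other 662 protein-coding genes of chromosome 6 tested, 4.08% were higher and 8.31% lower. The 11 windows of the q arm from 70 Mb lay between -0.04 and 0.17. The median was 0.22 for q-arm members and 0.09 for all 315 q-arm genes, and with GC offsets it was 0.15 and -0.01. Without WT_Tub replicate 1 the medians were 0.35 for q-arm members and 0.22 for all q-arm genes. The p-arm members had a median of -0.02.

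NEDD9, EDN1 and SERPINB1 on the p arm rose the most. NEDD9 was at 7.16, 5.88 and 5.62 CPM in 6CD2m_Tub, above the WT_Tub levels given before. This was a log2 fold change of 2.36 ± 0.23 (SE, edgeR adjusted p = 2.04e-06). EDN1 was at 6.51, 6.64 and 5.79 CPM, a log2 fold change of 2.25 ± 0.28 (edgeR adjusted p = 1.86e-05). The EDN1 levels in WT_Tub rest on 11 to 29 counts.

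SERPINB1, an inhibitor of neutrophil proteases, was at 19.1, 20.1 and 18.9 CPM in 6CD2m_Tub and at 5.86, 6.22 and 6.18 CPM in WT_Tub. Its log2 fold change was 1.67 ± 0.18 (edgeR adjusted p = 4.17e-06). PTK7, a pseudokinase receptor of Wnt and planar polarity signalling, was at 97.9, 116 and 108 CPM against 39.4, 36.6 and 43.0 CPM, a rise of 1.43 ± 0.10 (edgeR adjusted p = 8.27e-08). All of these groups stood apart without overlap.

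On the q arm SOD2, AKAP12 and CITED2 rose. SOD2 was at 160.3, 160.1 and 174 CPM in 6CD2m_Tub and at 75.0, 69.6 and 61.9 CPM in WT_Tub, a log2 fold change of 1.26 ± 0.13 (edgeR adjusted p = 2.13e-06). In 8CDm_PCI the same gene was at 32.1, 30.0 and 30.6 CPM. AKAP12 was at 268, 300.0 and 294 CPM in 6CD2m_Tub, a log2 fold change of 0.67 ± 0.09, and CITED2 was at 73.9, 80.5 and 73.2 CPM, a change of 0.72 ± 0.10. DSP (0.93) and the quinone reductase gene NQO2 (0.60) were the other members that rose.

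KIF13A, SASH1 and CCND3 fell. KIF13A, a kinesin that moves endosomes, was at 48.9, 51.3 and 50.5 CPM in 6CD2m_Tub and at 89.6, 84.4 and 83.1 CPM in WT_Tub (-0.77 ± 0.09, edgeR adjusted p = 1.12e-05). SASH1 was at 45.2, 47.1 and 42.0 CPM (-0.72 ± 0.10, edgeR adjusted p = 3.55e-05). CCND3, the cyclin D3 of the G1 phase, was at 18.1, 18.9 and 18.6 CPM against 28.0, 26.3 and 29.5 CPM (-0.59 ± 0.09). Its edgeR adjusted p was 0.000174, and it rose as high as 0.0032 under the alternatives tried, 7 of which took it past the threshold. Without each of 5 libraries in turn, namely 6CD2m_Tub replicates 1, 2 and 3 and WT_Tub replicates 1 and 3, CCND3 was no longer called. All 3 genes were also lower in 8CDm_PCI than in either WT group, where KIF13A had log2 fold changes of -0.50 against WT_PCI and -0.55 against WT_Tub and CCND3 had -0.80 and -1.15.

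By role, 4 of 12 members for cytoskeleton, junctions and adhesion rose (NEDD9, PTK7, DSP and AKAP12) and SASH1 fell. The median of the list was 0.61, beside -0.01 over all genes tested. The list was made with earlier results known, so this contrast is a description. Of the 5 members for metabolism and redox, SOD2 and NQO2 rose. Of the 13 members for chromatin and transcription, CITED2 was the 1 that passed. EDN1 rose among the 2 secreted factors, and SERPINB1 among 6 tested members for inflammatory and cytokine signalling. CCND3 fell among 3 members for the cell cycle and DNA replication or repair, and KIF13A fell among 8 for trafficking, autophagy and endosomes. Of the 6 members for kinases, calcium and stress signalling 0 passed in edgeR, and 0 in DESeq2, while 2 were higher at an unadjusted p below 0.05. Of the 4 for RNA processing and translation 0 passed in edgeR, while DESeq2 called 1 higher. In that list 1 higher and 1 lower had an unadjusted p below 0.05. Over all 19535 genes tested, 8266 had an unadjusted p below 0.05 in either direction, as did 34 of 59 members. Nothing is read from the role counts at an unadjusted p, and DESeq2 shares over all genes are not given here.

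**Figure D4:**
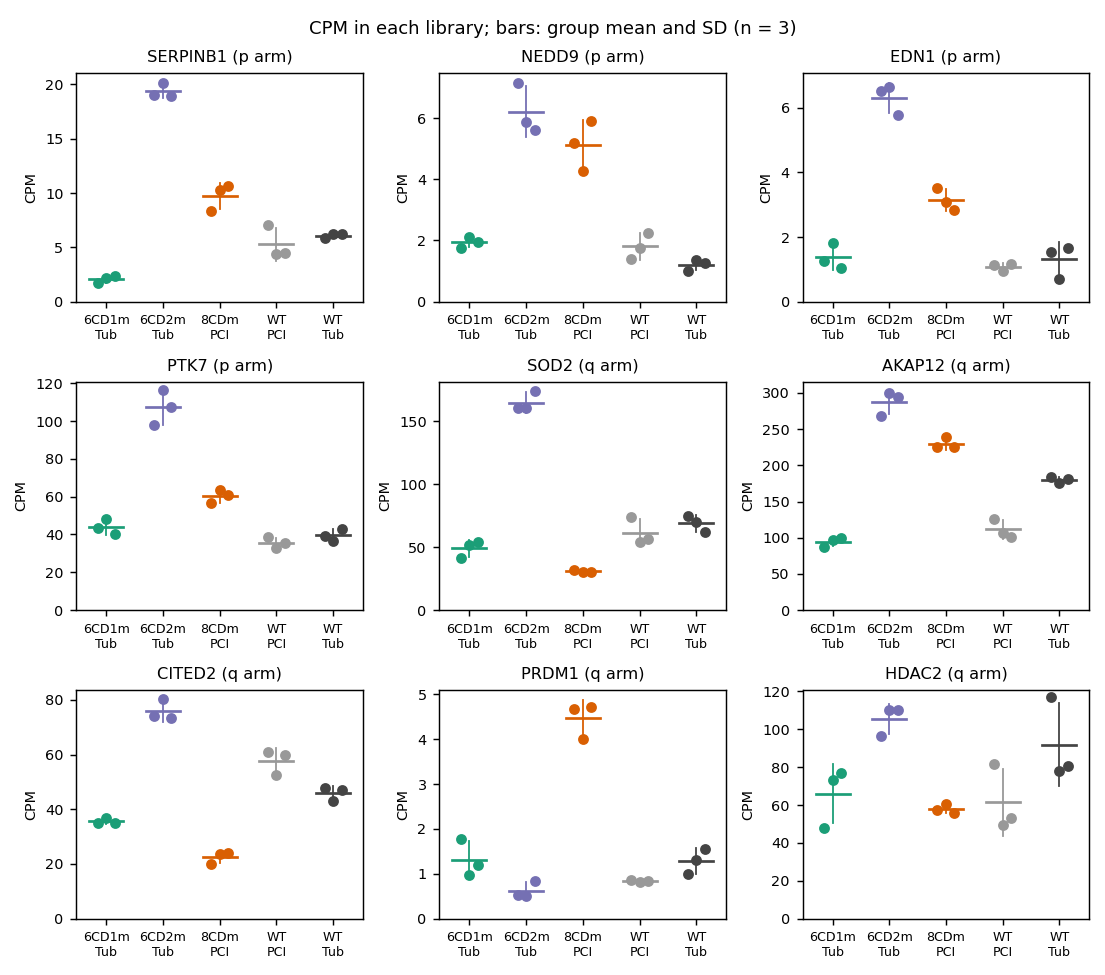
CPM (vertical axis, linear from 0) of 9 members in each library. Points are libraries, the horizontal bar is the group mean and the vertical line spans the mean ± SD (n = 3). SERPINB1 lies between 18.9 and 20.1 in 6CD2m_Tub and between 1.68 and 2.37 in 6CD1m_Tub, and PRDM1 is above 4 only in 8CDm_PCI.

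In 6CD1m_Tub against the same WT_Tub libraries, 3 of 59 members fell and 0 rose. Over all genes 0.793% passed, 0.522% lower and 0.271% higher. In edgeR, 21 members were lower and 3 higher at an unadjusted p below 0.05, and DESeq2 called 4 lower and 0 higher at the adjusted threshold. DESeq2 shares over all genes are not given here, so nothing is read from its counts. Over all 19535 genes, 6248 had an unadjusted p below 0.05 in either direction, and 24 of 59 members did. AKAP12 and SYNE1 are 2 of 12 members for cytoskeleton, junctions and adhesion, and SERPINB1 is 1 of 6 tested for inflammatory and cytokine signalling. In each of the other 7 role lists edgeR and DESeq2 called 0, and from 0 to 5 of their members had an unadjusted p below 0.05. SERPINB1 was at 1.68, 2.18 and 2.37 CPM, which is -1.54 ± 0.21 against WT_Tub (edgeR adjusted p = 0.00035). AKAP12 was at 87.4, 96.6 and 99.5 CPM (-0.93 ± 0.09, edgeR adjusted p = 2.86e-05). Both genes rose in 6CD2m_Tub, which shares these control libraries. SYNE1, a giant spectrin repeat protein that ties the nucleus to actin, was at 98.3, 101 and 103 CPM against 149.8, 139 and 136 CPM (-0.49 ± 0.07, edgeR adjusted p = 0.000882). Without any 1 of the 6 libraries, AKAP12 alone was called, and with the replicate number as a block 1 member was.

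The q-arm members of 6CD1m_Tub had a median of -0.34 against WT_Tub, with 23 of 27 below 0, and all q-arm genes had -0.25. With GC offsets these medians were -0.25 and -0.13, and that of the other chromosomes was -0.13. The log2 fold change in this comparison had a Spearman correlation of 0.383 with GC content across genes. The q-arm windows from 70 Mb lay between -0.35 and -0.08. Without 6CD1m_Tub replicate 1, the lowest of its group, the medians were -0.24 for q-arm members and -0.15 for all q-arm genes. Without WT_Tub replicate 1 they were -0.25 and -0.17, and without 6CD1m_Tub replicate 3 they were -0.43 and -0.37. ME1, at 19.9, 31.9 and 37.0 CPM, shows this spread (-0.77 ± 0.24, edgeR adjusted p = 0.0561).

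The KDAC6 lines, which received the same dose for the same time, differed from each other in 17 members, with 15 lower and 2 higher in 6CD1m_Tub. Over all genes 13.2% passed, 6.65% lower and 6.54% higher. The share of members that were lower was 25.4%, beside 8.16% of the other 662 chromosome 6 genes. The members were listed with earlier results of these libraries known, so this share is a description. Of the 15 lower members, 9 were on the q arm. Without 6CD1m_Tub replicate 2 the count of members that differed was 11. The median of q-arm members was -0.54, or -0.34 with GC offsets, where all q-arm genes had -0.30 and -0.10. Without 6CD1m_Tub replicate 1 these medians were -0.44 for members and -0.21 for all q-arm genes, and 15 members were called. Without 6CD1m_Tub replicate 3 they were -0.69 and -0.48.

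SERPINB1 differed the most, by -3.21 ± 0.20 on the log2 scale (edgeR adjusted p = 2.16e-08), a level in 6CD2m_Tub 9.24 times that in 6CD1m_Tub. EDN1 was at 1.26, 1.82 and 1.05 CPM in 6CD1m_Tub, -2.19 ± 0.28 relative to 6CD2m_Tub. SOD2 was at 41.6, 51.6 and 53.8 CPM, a difference of -1.75 ± 0.13 (edgeR adjusted p = 1.07e-07). NEDD9 was at 1.77, 2.11 and 1.95 CPM (-1.67 ± 0.23). For each of these the 6CD1m_Tub libraries lay below all 6CD2m_Tub libraries.

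GJA1, the gap junction protein connexin 43, was at 0.842, 0.702 and 0.349 CPM in 6CD1m_Tub and at 2.19, 2.43 and 2.39 CPM in 6CD2m_Tub (-1.89 ± 0.35, edgeR adjusted p = 0.000567). In 6CD1m_Tub this is 5 to 10 counts a library, and 7 alternatives took the call past the threshold, with adjusted p up to 0.00272. Without 6CD1m_Tub replicate 2 or 3, or any of the 3 6CD2m_Tub libraries, it was not called. KIF13A was higher in 6CD1m_Tub, at 72.4, 85.8 and 84.6 CPM (0.69 ± 0.09, edgeR adjusted p = 3.61e-05), as was UTRN, at 185, 194 and 206 CPM against 123, 137 and 132 CPM (0.58 ± 0.09, edgeR adjusted p = 0.000124). Without 6CD1m_Tub replicate 2 neither was called, and UTRN was not called without 6CD1m_Tub replicate 3, 6CD2m_Tub replicate 1 or 6CD2m_Tub replicate 3.

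By role, 8 of 12 members for cytoskeleton, junctions and adhesion were lower in 6CD1m_Tub and 1 was higher. The 8 were GJA1, NEDD9, AKAP12, PTK7, CD164, DSP, PHACTR1 and SYNE1, and UTRN was higher. The median of the list was -0.98, beside 0.05 over all genes tested. The list was made with earlier results known, so this contrast is a description. Of the 6 tested members for inflammatory and cytokine signalling, SERPINB1 and TNFAIP3 were lower. TNFAIP3 was at 14.2, 11.7 and 8.85 CPM in 6CD1m_Tub and at 19.4, 25.0 and 23.8 CPM in 6CD2m_Tub (-0.98 ± 0.15, edgeR adjusted p = 0.000126). Of the 13 members for chromatin and transcription CITED2 was lower, at 35.0, 36.7 and 34.9 CPM. SOD2 was lower among 5 members for metabolism and redox, EDN1 among 2 secreted factors, QKI among 4 for RNA processing and translation, and FYN, a Src family kinase, among 6 for kinases, calcium and stress signalling. KIF13A was higher among 8 members for trafficking, autophagy and endosomes, although the median of that list was -0.35. There DESeq2 called 1 higher and 3 lower, and 1 higher and 4 lower had an unadjusted p below 0.05. Of the 3 members for the cell cycle and DNA replication or repair 0 passed in edgeR, while DESeq2 called 1 higher. In that list 1 was higher at an unadjusted p below 0.05. Over all 19535 genes tested, 9576 had an unadjusted p below 0.05 in either direction, as did 40 of 59 members. Nothing is read from the counts at an unadjusted p, and DESeq2 shares over all genes are not given here. PRDM1, at 1.77, 0.983 and 1.19 CPM against 0.533, 0.507 and 0.834 CPM, did not pass (1.05 ± 0.32, edgeR adjusted p = 0.0167).

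Between the WT groups, which shared the length of treatment and differed in the inhibitor, AKAP12 was the 1 member past the threshold, at a log2 fold change of -0.69 in WT_PCI. Without any 1 library other than WT_PCI replicate 1 it was not called. Over all genes 0.420% passed. The replicate numbers paired these libraries, and with the replicate as a block 6 members passed. The share over all genes with the block is not given here, so nothing is read from that count. The q-arm members had a median of -0.30 in WT_PCI, and the log2 fold change had a Spearman correlation of 0.493 with GC content across genes. With GC offsets that median was -0.14, and without WT_PCI replicate 1 it was -0.48. Without WT_PCI replicate 2 or WT_Tub replicate 1 it was -0.19. The PCI-34051-treated libraries enter the choice of chromosome 6, so this is a description.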

How the data were processed

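Total RNA of treated HT1080 cells was depleted of rRNA and sequenced by the authors, who deposited expected counts (estimated reads per gene, not normalized) on GRCh38. The submitters' processing notes name Trimmomatic 0.39, Bowtie2 2.4.5, RSEM 1.3.3 and DESeq2 1.38.2. The annotation release and strand setting are not given in the sources used here, so reads of overlapping or antisense genes may be split. The 21.8% of nonzero values with a fractional part were rounded to whole counts. Gene positions and GC content came from GENCODE 29, which matched 57055 of 60675 identifiers. Totals of 10932455 to 19983710 counts set the precision, and the common biological coefficient of variation was 16.4%.

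Tests used edgeR 4.0.16 in R 4.3.3 (filterByExpr, TMM, 1 model of 15 libraries, quasi-likelihood test), with Benjamini-Hochberg adjustment over 19535 genes and the study's threshold of 0.001. Medians of libraries use log2 CPM with a prior count of 2. Members and the 9 role lists were chosen with earlier results of these data known. Values in every library are given for HDAC2. For up to 5 called members in each direction of the tested comparisons, values are given in every library of the comparison. The same holds for the 5 highest, 5 lowest and 5 nearest the median in 8CDm_PCI against WT_PCI. The script was tested on simulated data. Alternatives were an adjusted p of 0.05, DESeq2 1.42.0, its size factors, no filter, GC offsets (a smooth trend with GC content removed from each library), a replicate block and leaving out each library. Arm medians without each library were added after the data were seen. Same-numbered replicates paired only WT_PCI with WT_Tub (correlations of their deviations 0.505, 0.235 and 0.169).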

Additional observations from a re-analysis of the deposited data

Results flagged for a closer look

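The members below differed between the KDAC6 lines under the same treatment in edgeR's quasi-likelihood test of the difference itself (6CD1m_Tub minus 6CD2m_Tub, log2). On the p arm the differences were -3.21 for SERPINB1, -2.19 for EDN1, -1.67 for NEDD9, -1.29 for PTK7, -0.99 for DSP, -0.97 for PHACTR1 and 0.69 for KIF13A. On the q arm they were -1.89 for GJA1, -1.75 for SOD2, -1.61 for AKAP12, -1.14 for CD164, -1.09 for CITED2 and -0.98 for TNFAIP3. The remaining q-arm differences were -0.92 for QKI, -0.84 for SYNE1, -0.54 for FYN and 0.58 for UTRN. Adjusted p-values (edgeR) ran from 1.17e-08 for AKAP12 to 0.000976 for QKI. With GC offsets 16 of these 17 members were still called (edgeR). GJA1 was not, at -1.61 with an adjusted p of 0.00213 (edgeR), in a range of 1.63e-05 to 0.00272 over the alternatives. The log2 difference had a Spearman correlation of 0.329 with GC content across genes.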

How the results depend on the processing

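Alternatives were run for 21 values of single members in the comparisons with KDAC6 lines, and none of these changed direction. In 8CDm_PCI against WT_PCI, QKI and IFNGR1 turned from above to below 0 with GC offsets. Of 252 alternative values of the 21, 215 stayed on their side of the threshold, 35 lost the call and 2 gained it (HDAC2 between the KDAC6 lines). At an adjusted p of 0.05, 24 members passed in 6CD2m_Tub and 11 in 6CD1m_Tub against WT_Tub, 37 between the KDAC6 lines, 39 in 8CDm_PCI against WT_Tub and 15 between the WT groups. The shares of all genes that passed at 0.05 are not given here, so nothing is read from these counts. Between the WT groups, the count of members at the study's threshold was 3 with no filter, 4 with GC offsets and 7 with DESeq2. With the replicate block it was 6, and in 6CD1m_Tub against WT_Tub it was 1, where the numbers do not pair the libraries. Between the WT groups, the protein-coding genes called on the other chromosomes went from 76 to 173 with GC offsets. Shares over all genes are not given for the other settings or for libraries left out, so nothing is read from these counts. The block moved no other count of members by over 1.5 times. With GC offsets the median of all members in 6CD2m_Tub against WT_Tub was 0.051. Leaving out 1 library, 11 to 15 members passed between the KDAC6 lines, 1 to 1 in 6CD1m_Tub and 10 to 12 in 6CD2m_Tub against WT_Tub. The ranges were 14 to 20 in 8CDm_PCI against WT_PCI, 15 to 19 against WT_Tub (15 without 8CDm_PCI replicate 1) and 0 to 2 between the WT groups (2 without WT_PCI replicate 1, 0 without any other). Medians of members then ran from -0.45 to -0.29 between the KDAC6 lines, from -0.28 to -0.14 in 6CD1m_Tub and from 0.13 to 0.26 in 6CD2m_Tub. They ran from -0.19 to -0.14 and from -0.42 to -0.33 in 8CDm_PCI against WT_PCI and WT_Tub, and from -0.32 to -0.10 between the WT groups. Depth limits GJA1, PRDM1, EDN1, NEDD9 and SERPINB1 most, with under 30 counts in some libraries, and counting error is all that their counts bound.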
